A study of Homo sapiens with 6 samples.

Results

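Pulmonary alveoli are lined by flat alveolar type 1 cells, across which gas exchange takes place, and by cuboidal alveolar type 2 cells, which make and secrete surfactant and renew the type 1 layer. Type 1 cells are recognised by the receptor AGER, the water channel AQP5, the glycoprotein PDPN, the caveolar proteins CAV1 and CAV2 and the nuclear protein HOPX, and type 2 cells by surfactant proteins and the proteases that process them. Lung adenocarcinoma often keeps part of the type 2 programme. Several of these proteins are also made outside the alveolus, and caveolins are abundant in many adherent cells. The 10 genes described here were the rows of the gene count table whose symbols are AGER, HOPX, AQP5, CAV1, CAV2, PDPN and CLIC5 (7 type 1 markers) or SFTPB, SFTPD and NAPSA (3 type 2 markers), out of 36459 rows. All 10 symbols were found.

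RNA was sequenced from parental PC9 cells (PC9), an established line of human non-small cell lung carcinoma, and from persister cells derived from them (PS PC9), which were the cells present after 6 days in continuous 15 µM erlotinib, an inhibitor of the epidermal growth factor receptor kinase. There were 3 libraries per condition. The labels name a parental and a persister group, both of the same line, and the study states that the persister libraries were pooled from 9 cultures while the parental libraries came from 3 cultures, so the p-values measure the spread between these libraries. Because the RNA is from bulk cultures, fewer cells carrying a transcript and less of it per cell cannot be told apart. Total gene counts were 29476725 to 34893782 per library, and all values below are estimated counts, or counts per 1000000 of the library total after TMM scaling (CPM). A count of 3 was taken as the detection floor, which corresponded to between 0.0872 and 0.103 CPM depending on the library. Epithelial transcripts were present in both conditions but not unchanged. The mean EPCAM level was 388 CPM in parental and 342 CPM in persister libraries. Of 5 epithelial genes read, EPCAM, KRT8 and KRT18 were lower in PS PC9 and CDH1 and EGFR were higher (edgeR adjusted p under 0.01). By this rule 28.1% of all genes tested were lower and 28.7% higher. NKX2-1, which encodes a transcription factor of the lung epithelium, had 0, 0 and 0 counts in PC9 and 1, 0 and 1 in PS PC9. SFTPC, the transcript that defines type 2 cells most narrowly, had 0 counts in all 6 libraries, which allows no more than the floor of 3 counts in each. The data therefore describe single markers in a cancer line and not alveolar cells.

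Of the 10 markers, 6 passed the expression filter and were tested, and 4 of these 6 were lower in PS PC9, namely CAV1, CAV2, HOPX and SFTPB (edgeR quasi-likelihood test, adjusted p under 0.01 over the 14626 genes tested). Over all genes tested, 28.1% were lower and 28.7% were higher by the same rule. CLIC5 was higher and AGER did not pass the limit. For 5 of the 6, no parental library lay within the range of the persister libraries or the reverse, where 71.3% of all genes tested did not overlap. The median log2 fold change was -0.79 over the 6 tested markers and -0.0061 over all genes tested. With 6 genes, these counts describe the markers and carry no test of their own. PDPN was the only marker at the detection floor in all 6 libraries, and AQP5 was at or under it in 4 libraries. SFTPD and NAPSA stayed above it in every library but had too few counts for the filter.

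**Figure D1:**
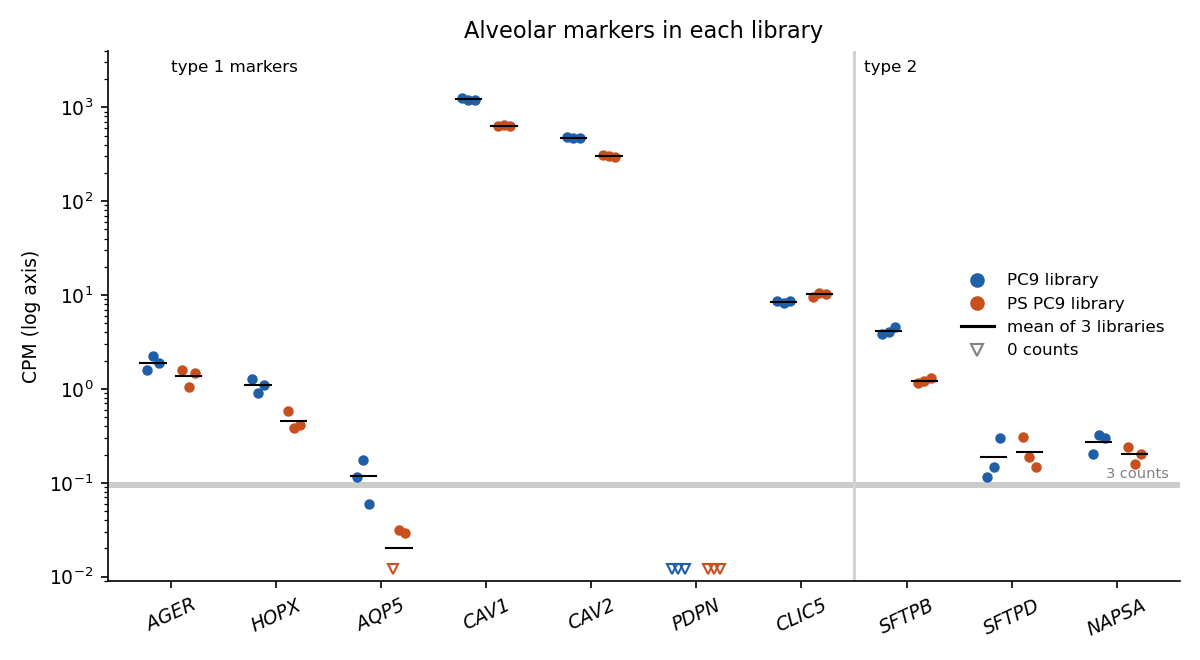
The CPM of each of the 10 markers is plotted on a log axis for the 3 PC9 and 3 PS PC9 libraries, with the mean of each group as a bar, 0 counts as open triangles and the level of 3 counts as a grey band. CAV1 and CAV2 lie at 299 CPM or above in every library, CLIC5, AGER, SFTPB and HOPX lie between 0.381 and 10.6 CPM, and the PDPN libraries are all at 0.

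The markers differed widely in level. Per kilobase of the canonical transcript, PC9 libraries had 495 ± 9.20 CPM per kb of CAV1 and 161 ± 3.55 of CAV2 (SD, n = 3 here and throughout). No other marker exceeded 1.57 CPM per kb in a PC9 library. CLIC5 (1.49 ± 0.0341), AGER (1.35 ± 0.224), SFTPB (1.18 ± 0.107) and HOPX (0.976 ± 0.164 CPM per kb) followed, and each of these overlapped its neighbour in that order. NAPSA (0.202 ± 0.0464), SFTPD (0.145 ± 0.0754) and AQP5 (0.0810 ± 0.0403 CPM per kb) came last with a level above 0, again overlapping from neighbour to neighbour. In PS PC9 the first 4 places were the same, with CAV1 at 258 ± 2.47, CAV2 at 103 ± 1.44, CLIC5 at 1.78 ± 0.0916 and AGER at 0.968 ± 0.205 CPM per kb, and there they did not overlap. HOPX (0.408 ± 0.0969) and SFTPB (0.346 ± 0.0221 CPM per kb) overlapped each other below them. AGER is placed with a caution, since most of its counts could not be tied to an annotated transcript, as described with that gene.

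CAV1 and CAV2, the integral membrane proteins of caveolae, form hetero-oligomers that coat these plasma membrane invaginations. They are neighbours on chromosome 7 (GRCh38). CAV2 spans chr7:116287380-116508541 and CAV1 spans chr7:116524994-116561179, both on the plus strand and 16452 bases apart. Most CAV2 counts were on transcripts that start near base 116499738, so the long upstream part of its span held few counts. The 120 bases before the main CAV2 start and before a CAV1 start just upstream of that of CAV1-201, from the RefSeq annotation of GRCh38.p14, are shown because both genes fell together. Neither window, nor the 250 bases before either start, held any of the motif letters searched for, which would be in capitals.
CAV2, chr7:116499618-116499737, start at base 116499738: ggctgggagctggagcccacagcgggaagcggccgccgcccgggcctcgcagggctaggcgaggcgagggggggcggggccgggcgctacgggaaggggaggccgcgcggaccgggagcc
CAV1, chr7:116524889-116525008, start at base 116525009: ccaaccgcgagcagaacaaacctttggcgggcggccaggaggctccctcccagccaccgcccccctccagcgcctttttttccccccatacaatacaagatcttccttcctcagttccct
Both are rich in G and C, with 83.2% G or C and 35 CpG in the 250 bases before the CAV2 start, and 63.6% and 18 CpG before the CAV1 start.

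CAV1 had 42743, 40994 and 40449 counts in PC9 replicates 1 to 3 and 18485, 20173 and 21491 in PS PC9. Every PS PC9 library was far below every PC9 library. The level went from 1216 ± 22.6 CPM in PC9 to 634 ± 6.07 CPM in PS PC9, so that persister cells kept 52.2% of the parental level (log2 fold change -0.94, SE 0.0325, edgeR adjusted p = 1.49e-09). CAV2 had 16781, 15903 and 15926 counts in PC9 and 8976, 9549 and 10216 in PS PC9. Here too the groups were apart. CAV2 fell from 476 ± 10.5 to 303 ± 4.27 CPM, or to 63.7% of the parental level (log2 fold change -0.65, SE 0.0337, edgeR adjusted p = 3.42e-08). Both falls passed the limit under all 16 alternatives for each gene. Among the 16 is the main fit read at an adjusted p of 0.05, which cannot lose a call made at 0.01.

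The measured fall of CAV1 was larger than that of CAV2. There were 2.55, 2.58 and 2.54 CAV1 counts per CAV2 count in PC9 and 2.06, 2.11 and 2.10 in PS PC9. The ratio was lower in 3 of 3 persister libraries than in any parental one, with a two-sided exact permutation p of 0.1, the smallest that 3 against 3 libraries can give, and of 0.2 after Benjamini-Hochberg adjustment over 6 ratios. The fall was shared by the main transcripts. CAV1-201, which starts at base 116525036 and held 59.0% of CAV1 transcript counts in PC9, fell from 727 ± 5.92 to 352 ± 18.2 CPM (log2 fold change -1.05, edgeR adjusted p = 8.1e-05 over all transcripts tested). CAV1-202, which starts downstream at base 116526293, fell from 422 ± 9.23 to 222 ± 14.5 CPM (log2 fold change -0.93, adjusted p = 0.00026 in the same edgeR fit). The CAV1-202 count per CAV1-201 count was 0.590, 0.577 and 0.575 in PC9 and 0.551, 0.668 and 0.681 in PS PC9, and these ranges overlapped (two-sided exact permutation p = 0.4). CAV2-201, with 92.7% of CAV2 transcript counts in PC9, fell from 447 ± 4.33 to 272 ± 6.18 CPM (log2 fold change -0.72, edgeR adjusted p = 8.1e-05).

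A minor CAV1 transcript, picked out after its values were seen, had counts unlike these. CAV1-209, which starts at base 116524994, had 984, 1147 and 843 counts in PC9 and 888, 1215 and 1115 in PS PC9, and its level did not pass the limit in either direction (log2 fold change 0.19, edgeR adjusted p = 0.441). Its share of CAV1 transcript counts was 2.40% ± 0.366 in PC9 and 5.34% ± 0.623 in PS PC9, without overlap (two-sided exact permutation p = 0.1, adjusted 0.2). Neither p-value takes account of how this transcript was picked. CAV1-208, a retained-intron transcript also named for its value, fell from 16.9 ± 0.917 to 6.06 ± 0.812 CPM (log2 fold change -1.47, edgeR adjusted p = 0.00113). The reads are divided among these overlapping transcripts by estimation, so shares of minor transcripts are less certain than gene totals. Over the 10 markers, 94 transcripts were in the table, 50 had a count, 17 were tested, 5 were lower (CAV1-201, CAV1-202, CAV1-208, CAV2-201 and SFTPB-207) and 0 were higher, while 3.91% of all transcripts tested were lower and 3.89% higher. At an unadjusted p under 0.05 in that edgeR fit, 2 were higher, and no other tool was run on transcripts. With the replicate number as a block 3 transcripts were lower, the calls of CAV1-208 (adjusted p = 0.0124) and SFTPB-207 (adjusted p = 0.0256 in that edgeR fit) being lost.

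**Figure D2:**
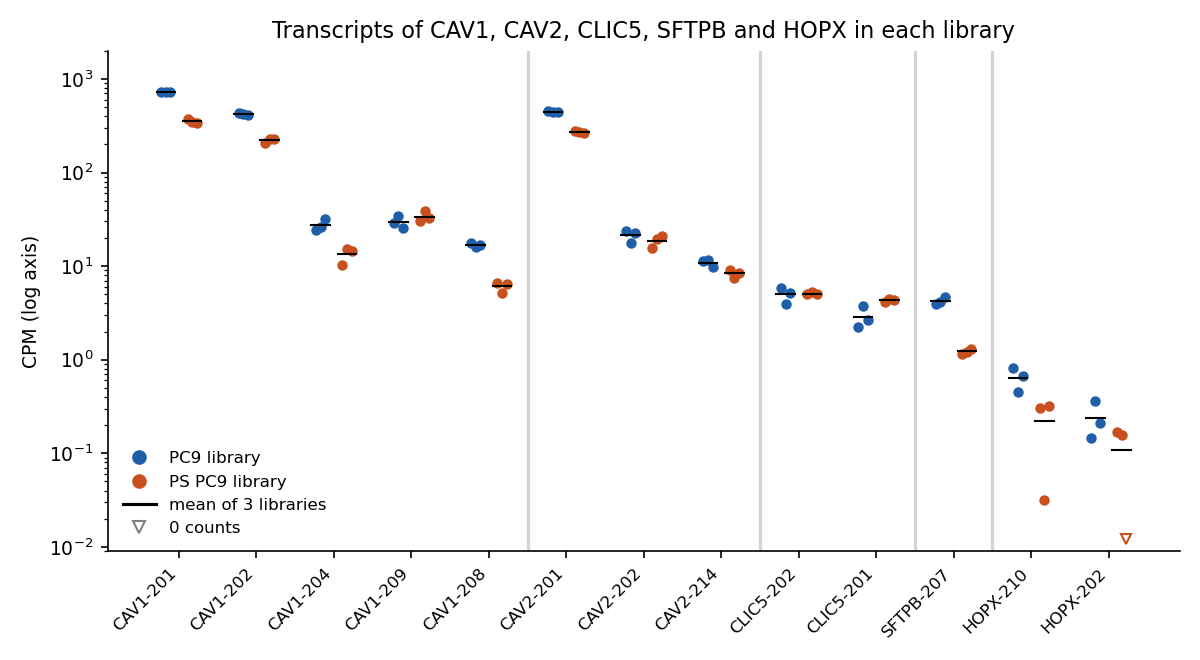
The CPM of 13 transcripts of 5 markers is plotted on a log axis for each PC9 and PS PC9 library, with group means as bars and 0 counts as open triangles. CAV1-201, CAV1-202, CAV2-201 and SFTPB-207 are lower in every PS PC9 library than in any PC9 library, whereas CAV1-209 and CLIC5-202 overlap between conditions.

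None of the tested genes around the caveolins was lower. Of 5 neighbours on chromosome 7, 4 were tested, 2 were higher, and 0 were lower at an unadjusted p under 0.05 in edgeR or by DESeq2 or limma-voom. Among all genes tested, 28.7% were higher and 28.1% lower at the adjusted limit. TES, the gene before CAV2, which encodes the focal adhesion protein testin, rose from 218 ± 3.36 to 328 ± 6.44 CPM (log2 fold change 0.59, SE 0.0341, edgeR adjusted p = 7.96e-08). MET, the receptor tyrosine kinase gene after CAV1, had 803 ± 26.6 CPM in PC9 and 857 ± 22.3 in PS PC9 and did not pass the limit (log2 fold change 0.09, SE 0.0373, edgeR adjusted p = 0.0453). The call of ST7 (log2 fold change 0.18, edgeR adjusted p = 0.00736) was lost under 8 of the 16 alternatives. Among 10 genes of caveola assembly, 9 were tested, 2 were higher, 2 were lower and 5 did not pass, beside the same shares of all genes. CAVIN1, the coat protein that caveolae need in order to form, had 7222, 8380 and 7652 counts in PC9 and 14945, 16378 and 18563 in PS PC9. It rose from 228 ± 18.2 to 525 ± 16.2 CPM (log2 fold change 1.20, SE 0.0541, edgeR adjusted p = 1.12e-08), so that it moved opposite to CAV1. There were 0.169, 0.204 and 0.189 CAVIN1 counts per CAV1 count in PC9 and 0.808, 0.812 and 0.864 in PS PC9 (two-sided exact permutation p = 0.1, adjusted 0.2). ROR1, a receptor reported to scaffold caveola proteins, also rose (log2 fold change 0.65). EHD2, an ATPase at the caveolar neck, and PACSIN3, a membrane-bending protein, fell by 0.50 and 0.57 on the log2 scale. CAVIN2, CAVIN3, CAVIN4, PACSIN2 and DNM2 did not pass the limit, and CAV3, the muscle caveolin, had 1 to 4 counts per library.

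**Figure D3:**
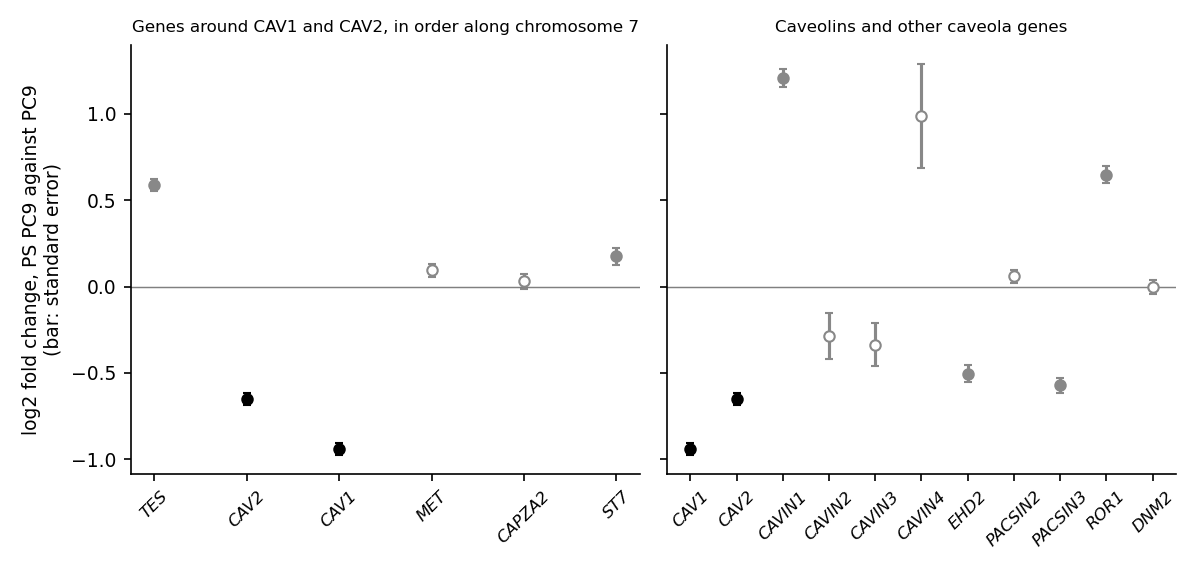
Log2 fold changes of PS PC9 against PC9 are plotted with their standard errors for the tested genes around CAV2 and CAV1 in their order along chromosome 7, and for tested genes of caveola assembly. Filled points passed the limit and open points did not, the 2 caveolins are in black, and CAVIN1 at 1.20 stands opposite to CAV1 at -0.94.

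HOPX encodes a small homeodomain protein that does not bind DNA itself and that marks type 1 cells and some of their precursors. It lies at chr4:56647989-56681877 on the minus strand. Its counts were low, with 44, 31 and 37 in PC9 and 17, 12 and 14 in PS PC9, and the highest persister library was below the lowest parental one. The level fell from 1.10 ± 0.184 to 0.458 ± 0.109 CPM (log2 fold change -1.26, SE 0.264, edgeR adjusted p = 0.00142), or to 41.6% of the parental level. The call was made in all 15 alternatives that tested it, with adjusted p between 0.0011 and 0.00874. The stricter filter of 1 CPM in 3 libraries left HOPX out. HOPX-210, which starts at base 56656487 and held 57.2% of HOPX transcript counts in PC9, had 28, 15 and 22 counts in PC9 and 9, 1 and 11 in PS PC9 and did not pass the limit (log2 fold change -1.53, edgeR adjusted p = 0.277). HOPX-202, which starts at base 56681296, had 5, 12 and 7 counts in PC9 and 5, 5 and 0 in PS PC9. HOPX-208, a retained-intron transcript, had 7, 4 and 4 counts in PC9 and 3, 0 and 3 in PS PC9. HOPX-209 had 6 counts in PS PC9 replicate 2 and 0 elsewhere. Windows before a start just upstream of that of HOPX-210 and before the start of HOPX-202 are shown. Capitals mark the only match to the FOXA letters among the markers' promoters.
HOPX, chr4:56656518-56656637, start at base 56656517: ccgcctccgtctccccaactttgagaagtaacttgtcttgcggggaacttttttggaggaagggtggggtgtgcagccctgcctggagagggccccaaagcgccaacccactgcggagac
HOPX, chr4:56681297-56681416, start at base 56681296: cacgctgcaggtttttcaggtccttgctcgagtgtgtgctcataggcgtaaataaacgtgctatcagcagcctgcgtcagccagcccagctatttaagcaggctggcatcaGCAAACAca
The FOXA match, which reads TGTTTGC on the opposite strand, begins 9 bases before the start at 56681296.

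CLIC5 encodes a chloride intracellular channel family protein that binds the ezrin complex linking the actin cortex to the membrane. It lies at chr6:45880827-46080348 on the minus strand. It had 297, 282 and 290 counts in PC9 and 280, 334 and 352 in PS PC9, and after scaling to library size the groups did not overlap, with 8.63, 8.29 and 8.61 CPM in the parental and 9.59, 10.6 and 10.3 CPM in the persister libraries. The difference was small, from 8.51 ± 0.194 to 10.2 ± 0.523 CPM (log2 fold change 0.26, SE 0.0742, edgeR adjusted p = 0.00975). The call was lost under 12 of 16 alternatives, with adjusted p up to 0.0446, and the log2 fold change stayed between 0.20 and 0.30. Without PC9 replicate 1, 2 or 3 the adjusted p in the edgeR fit was 0.0135, 0.0255 or 0.0269, without PS PC9 replicate 2 or 3 it was 0.0428 or 0.0362, and without PS PC9 replicate 1 it was 0.0095. CLIC5 starts from distant promoters that differ in base composition, and the 2 with most of the counts are shown.
CLIC5-202, chr6:46015861-46015980, start at base 46015860: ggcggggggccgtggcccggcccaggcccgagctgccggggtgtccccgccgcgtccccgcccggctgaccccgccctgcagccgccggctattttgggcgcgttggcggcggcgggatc
CLIC5-201, chr6:46080349-46080468, start at base 46080348: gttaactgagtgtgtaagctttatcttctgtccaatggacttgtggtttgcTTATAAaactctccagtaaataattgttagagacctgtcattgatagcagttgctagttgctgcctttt
Over 250 bases the first has 72.0% G or C with 23 CpG, and the second has 36.8% with 0 CpG and holds TATAA on both strands, in overlapping matches that begin 69 and 68 bases before the start and are in capitals. CLIC5-202 held 67.3%, 47.2% and 58.3% of CLIC5 transcript counts in PC9 and 52.1%, 50.0% and 48.6% in PS PC9. CLIC5-201 held 25.6%, 44.7% and 30.0% in PC9 and 42.9%, 42.2% and 42.6% in PS PC9. The shares of both transcripts overlapped between conditions (two-sided exact permutation p = 0.4 for each), and neither level passed the limit (edgeR adjusted p = 0.94 and 0.172).

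Among 10 genes of the CLIC family and of the ezrin complex, 9 were tested, 2 rose and 4 fell, but 2 fell when gene counts were summed from transcripts. For comparison, 28.7% of all genes tested were higher and 28.1% lower in the main fit. CLIC4, another member of the family, rose from 262 ± 7.69 to 472 ± 10.4 CPM (log2 fold change 0.85, edgeR adjusted p = 7.58e-09), and CLIC1 fell by 0.28 on the log2 scale (adjusted p = 7.4e-05 in the same edgeR fit).

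AGER encodes the receptor for advanced glycation end products, at chr6:32180968-32184322 on the minus strand, and is among the most abundant type 1 transcripts of normal lung. It had 55, 76 and 64 counts in PC9 and 47, 33 and 50 in PS PC9. The groups overlapped after scaling, at 1.60, 2.23 and 1.90 CPM against 1.61, 1.05 and 1.46 CPM. The difference did not pass the limit (log2 fold change -0.48, SE 0.207, edgeR adjusted p = 0.062), with an adjusted p of 0.0316 to 0.214 under the 15 alternatives that could be fitted. Of the gene's counts, 5.23% were on the 13 transcripts that were matched to the annotation, with 2, 0 and 3 counts in PC9 and 6, 6 and 0 in PS PC9. Among these, AGER-211, a retained-intron transcript, had 0 counts in PC9 and 2, 5 and 0 in PS PC9, and AGER-201, AGER-209, AGER-210 and AGER-212 had between 0 and 2 counts in any library. The rest of the gene's counts were not traced to transcripts. AGER lies in the major histocompatibility complex, a region with alternate copies in the Ensembl transcript set, and whether the rest belongs to those copies was not tested. Of 8 genes for ligands and partners of this receptor, 5 were tested, 1 rose and 3 fell, where 28.7% of all genes tested were higher and 28.1% lower. Among those that fell was S100A4, a calcium-binding protein, from 27.6 ± 1.48 to 4.29 ± 0.610 CPM (log2 fold change -2.68, edgeR adjusted p = 1.31e-09).

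AQP5, the apical water channel of type 1 cells at chr12:49961872-49965682 on the plus strand, had 4, 6 and 2 counts in PC9 and 0, 1 and 1 in PS PC9, all on AQP5-201. Only PC9 replicates 1 and 2 exceeded the floor. Summed over each group, 12 counts in PC9 and 2 in PS PC9 gave a ratio of 0.173 for PS PC9 over PC9 relative to total counts, with a 95% exact interval from 0.0188 to 0.777 that covers counting error only. Fitted without a filter, the difference did not pass the limit (log2 fold change -2.28, SE 1.00, edgeR adjusted p = 0.0739). Of 10 other aquaporin genes, 3 were tested, 1 rose and 0 fell, nor did any fall at an unadjusted p under 0.05 in edgeR or by DESeq2 or limma-voom. At the adjusted limit, 28.7% of all genes tested were higher and 28.1% lower. AQP3, an aquaglyceroporin, rose from 5.63 ± 0.0922 to 8.50 ± 0.668 CPM (log2 fold change 0.59, edgeR adjusted p = 0.000141). PDPN, podoplanin, at chr1:13583465-13617957 on the plus strand, had 0 counts in all 6 libraries and on all 11 of its transcripts. A count of 0 allows up to 3 counts, or 0.103 CPM in the shallowest library.

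SFTPB encodes surfactant protein B, the hydrophobic peptide without which surfactant does not spread. It lies at chr2:85657314-85668741 on the minus strand. It had 133, 139 and 155 counts in PC9 and 34, 38 and 45 in PS PC9, so that the groups were well apart. Its level fell from 4.18 ± 0.380 to 1.23 ± 0.0785 CPM (log2 fold change -1.76, SE 0.142, edgeR adjusted p = 1.07e-06), or to 29.5% of the parental level, the largest proportional change among the tested markers. The call was made under all 16 alternatives. All of its counts were on SFTPB-207, which starts at base 85668199 (log2 fold change of the transcript -1.79, edgeR adjusted p = 0.00228), and none were on the other 6 transcripts, some of which start near base 85668741. The call of the transcript, though not of the gene, was lost without PC9 replicate 2 or 3 (edgeR adjusted p = 0.0125 and 0.0163) and without PS PC9 replicate 1, 2 or 3 (0.0131, 0.0143 and 0.0131), as well as under the block. The promoter of the transcript in use is shown, with its TATAA match in capitals.
SFTPB, chr2:85668200-85668319, start at base 85668199: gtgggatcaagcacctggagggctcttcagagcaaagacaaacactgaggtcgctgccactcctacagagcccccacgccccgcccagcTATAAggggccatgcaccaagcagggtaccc
The match begins 31 bases before the start. The 250 bases have 61.2% G or C and 3 CpG, and hold no CTCAAG on either strand, the letters used here for NKX2-1.

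Motif letters were searched for on both strands of the 250 bases before each of 20 starts of the 10 markers, of which the 7 shown above lie before or near starts of transcripts with counts. TATAA, letters added after the promoters had been seen, occurs in 18.9% of 35116 promoters of all genes, and among the markers before starts of PDPN, SFTPB, CLIC5 and NAPSA. GGAATG, for TEAD factors, occurs in 11.9% of all promoters and here only before the AGER start. TGACTCA, for AP-1, occurs in 4.20% and here before a start of SFTPB that carried no counts and before that of SFTPD. TGTTTAC or TGTTTGC, for FOXA factors, occurs in 6.09%, and CTCAAG, for NKX2-1, in 10.4%, the latter here before a second start of CAV2 and an upstream start of NAPSA. A match of letters is a description and not a binding site, and a missing match does not show that no site is present.

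SFTPD and NAPSA were close to the floor in both conditions. SFTPD, at chr10:79937467-79982614 on the minus strand, encodes surfactant protein D, a secreted collectin. It had 4, 5 and 10 counts in PC9 and 9, 6 and 5 in PS PC9, a ratio of 1.09 for PS PC9 over PC9 with a 95% exact interval from 0.553 to 2.16. SFTPD-201 held 0, 5 and 9 of the PC9 counts and all of the PS PC9 counts, and SFTPD-202 held the other 4, 0 and 1. NAPSA, at chr19:50358472-50365830 on the minus strand, encodes napsin A, an aspartic protease that processes pro-surfactant protein B and is stained for in the diagnosis of lung adenocarcinoma. It had 7, 11 and 10 counts in PC9 and 7, 5 and 7 in PS PC9, a ratio of 0.704 with an interval from 0.372 to 1.31. Both intervals include 1, so no difference was detectable at this depth. The canonical transcript NAPSA-201 had 3, 10 and 3 counts in PC9 and 0, 0 and 0 in PS PC9, where 3 counts per library are the limit. The persister counts of NAPSA were on NAPSA-206 and NAPSA-202, which retain introns, and on NAPSA-207, which is annotated for nonsense-mediated decay, with 0 to 6 counts each. NAPSA overlaps NR1H2 on the opposite strand, and the strandedness of the libraries is not given in the sources used here, so that reads of the 2 genes may not be separable.

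Other type 1 and type 2 markers were taken from general knowledge, with earlier results of these data known, to set beside the 10. Their counts describe the lists and carry no test. Over all genes tested, 28.7% were higher and 28.1% were lower. Of 12 further type 1 markers, 11 were tested, 9 were higher and 2 were lower, with a median log2 fold change of 0.54, while the 5 tested type 1 markers described above had a median of -0.65. Under the alternatives, 8 to 9 of the further type 1 markers were higher and 2 were lower. TIMP3, a metalloproteinase inhibitor, rose from 145 ± 4.48 to 360 ± 5.48 CPM (log2 fold change 1.31, edgeR adjusted p = 3.31e-10). GPRC5A, an orphan receptor induced by retinoic acid, rose from 749 ± 12.5 to 1357 ± 13.5 CPM (log2 fold change 0.86, adjusted p = 2.74e-09 in the same edgeR fit). EMP2, a tetraspan membrane protein, fell from 158 ± 4.23 to 52.9 ± 2.73 CPM (log2 fold change -1.58, edgeR adjusted p = 4.19e-10). SEMA3B, a secreted semaphorin, fell by 1.40 on the log2 scale. The type 1 markers thus moved in both directions.

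Of 15 further type 2 markers, 9 were tested, 4 were higher, 4 were lower and 1 did not pass, while SFTPA1, SFTPC, PGC and WIF1 were at the detection floor. LAMP3, a membrane protein of the lamellar body, the organelle that stores surfactant, had 465, 425 and 437 counts in PC9 and 994, 1178 and 1234 in PS PC9, and rose from 13.0 ± 0.512 to 35.9 ± 1.70 CPM (log2 fold change 1.47, edgeR adjusted p = 4.27e-09). ABCA3, the lamellar body lipid transporter, rose from 18.8 ± 1.05 to 32.2 ± 1.38 CPM (log2 fold change 0.78, edgeR adjusted p = 6.03e-07). LPCAT1, which makes the saturated phosphatidylcholine of surfactant, rose from 112 ± 3.63 to 196 ± 3.32 CPM (log2 fold change 0.81, adjusted p = 1.71e-08 in the edgeR fit). CTSH, a cathepsin that takes part in surfactant protein B processing, fell from 75.1 ± 0.864 to 48.6 ± 0.153 CPM (log2 fold change -0.63, edgeR adjusted p = 1.14e-07), as SFTPB did, and MUC1, an epithelial mucin, fell by 0.67 on the log2 scale. A broader list of 14 genes tied to surfactant shares CTSH, PGC, ABCA3, LAMP3, LPCAT1 and SLC34A2 with these. Of its genes, 13 were tested, 8 rose and 2 fell, where 28.7% of all genes tested were higher and 28.1% lower. Those that rose were ABCA3, LAMP3, LPCAT1, SLC34A2, PCYT1A, HPS1, CSF2RA and CSF2RB, and those that fell were CTSH and ADGRF5. Without PC9 replicate 3, or without PS PC9 replicate 3, 5 rose.

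**Figure D4:**
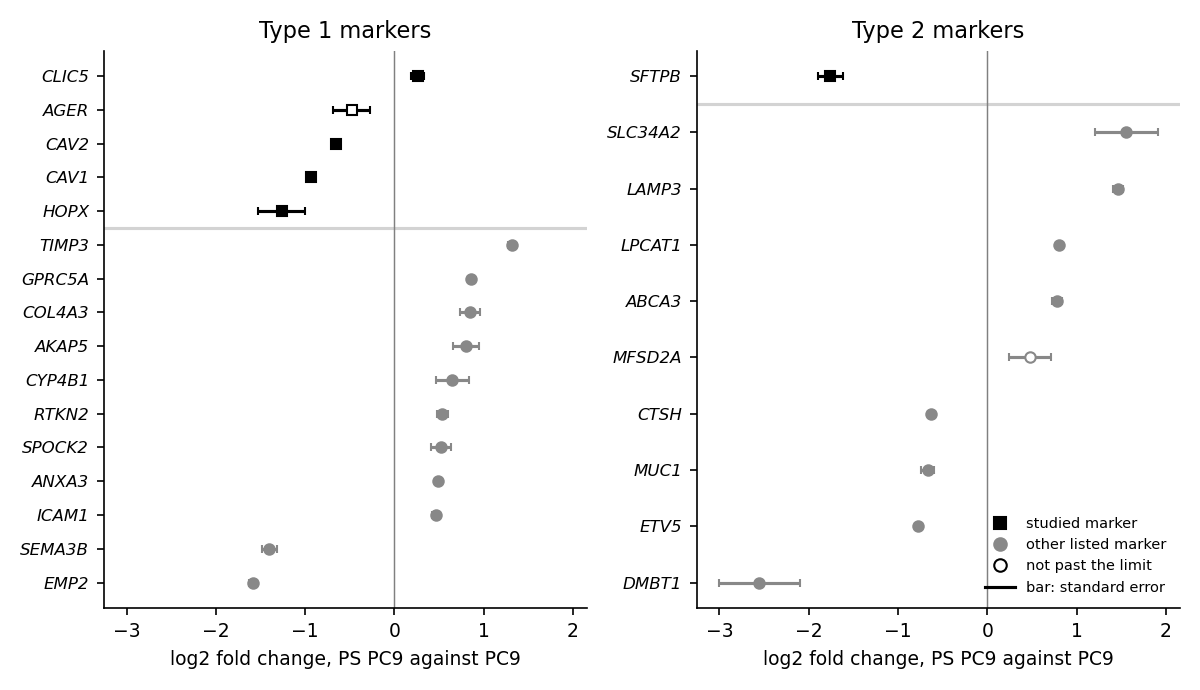
Log2 fold changes of PS PC9 against PC9 are plotted with their standard errors for the tested markers (squares, above the line) and for the other listed markers that were tested (circles), with type 1 on the left and type 2 on the right, and open symbols where the limit was not passed. SFTPB at -1.76 is opposite to LAMP3 at 1.47, and the type 1 panel runs from EMP2 at -1.58 to TIMP3 at 1.31.

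Of 13 transcription factors of the lung epithelium, 10 were tested, 2 rose and 5 fell, where 28.7% of all genes tested were higher and 28.1% lower. FOXA1, which opens chromatin at epithelial genes, fell from 42.1 ± 2.45 to 23.4 ± 1.19 CPM (log2 fold change -0.85, edgeR adjusted p = 3.42e-07). GATA6, a factor of lung endoderm, rose from 15.7 ± 1.19 to 28.6 ± 0.258 CPM (log2 fold change 0.86, edgeR adjusted p = 3.88e-07), and TEAD1, the DNA-binding partner of YAP1, rose by a log2 fold change of 0.82. YAP1 itself fell by 0.19 on the log2 scale. Of 8 genes of the intermediate state between type 2 and type 1 cells, 8 were tested, 2 rose and 5 fell, beside the same shares of all genes. KRT17 rose from 27.8 ± 1.66 to 341 ± 10.1 CPM (log2 fold change 3.62, edgeR adjusted p = 4.12e-12), while KRT8 fell from 2323 ± 161 to 1337 ± 51.4 CPM (log2 fold change -0.80, adjusted p = 1.61e-07 in the same edgeR fit).

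CAV1 and CAV2 are also abundant in endothelial cells and fibroblasts, and PDPN in fibroblasts and mesothelium, so markers of those cells were read in the same libraries. For comparison, 28.7% of all genes tested were higher and 28.1% lower. Of 5 endothelial markers, 2 were tested and 1 was lower, their summed level was 8.11 to 8.91 CPM in PC9 against 3.39 to 3.86 CPM in PS PC9, and CLDN5 was at 0 in all libraries. Of 6 fibroblast markers, 1 was tested and was higher (COL1A1), the summed level was 10.2 to 10.7 CPM in PC9 against 26.5 to 30.1 CPM in PS PC9, and COL3A1 was at 0. Of 4 mesothelial markers, 3 were tested and 2 were lower, with sums of 180 to 198 CPM in PC9 against 151 to 161 CPM in PS PC9 and WT1 at the floor. Of 5 immune markers, 2 were tested and 1 was lower (CD68), with sums of 74.7 to 76.5 CPM in PC9 against 19.6 to 22.6 CPM in PS PC9 and CD3E at 0. Among airway markers, 1 of 6 club cell genes was tested and did not pass the limit, 1 of 5 ciliated cell genes rose and 3 fell, and 1 of 5 basal cell genes rose and 2 fell. Some of these falls were large, with log2 fold changes of -6.66 for FOXJ1 of the ciliated list and -3.27 for TP63 of the basal list. The endothelial gene that was lower, PECAM1, had -4.35. All libraries were from cultures of the same line, so these values describe transcripts of that line and not the presence of such cells. Any relation of these transcripts to the marker levels was not tested.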

How the data were processed

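RNA-seq of 3 PC9 and 3 PS PC9 libraries was used. Groups and replicate numbers came from the sample labels, while the paper gave the dose, the duration and how many cultures were used. Poly-A libraries were made by the authors, whose processing notes name kallisto 0.46.1, sleuth 0.30.0 and GRCh38.p13. The authors deposited kallisto's estimated counts, not normalized and in whole numbers, in a table of gene symbols and a table of transcripts, so reads shared by similar transcripts are divided by estimation. Genes passing filterByExpr were tested with edgeR 4.0.16 (R 4.3.3, TMM, glmQLFit and glmQLFTest, no block, Benjamini-Hochberg adjustment, limit 0.01), and transcripts likewise. The standard error is the log2 fold change divided by the square root of F. The scripts were tested on simulated data. DESeq2 1.42.0, limma 3.58.1 (voom), other scalings, filters and fits, and the main fit read at a limit of 0.05 were alternatives. Identifiers and coordinates are from GENCODE 44, and promoters from RefSeq (GRCh38.p14), which matched all 10 markers. Ratios were tested with scipy 1.17.1, and figures drawn with matplotlib 3.10.9. All 10 markers are named, as are transcripts holding at least 10% of a marker's counts in either group, with exceptions stated. The markers and the gene lists were chosen with earlier results of these data known, and nothing is adjusted over a list alone. With 3 libraries against 3, the spread between libraries sets the precision, and intervals on low counts cover counting error only.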

Additional observations from a re-analysis of the deposited data

How the results depend on the processing

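CAV1, CAV2 and SFTPB were lower under all 16 alternatives, HOPX under all 15 that tested it, and AGER passed the limit under none of 15. These alternatives include the main fit read at an adjusted p of 0.05, which cannot lose a call made at 0.01. That setting is also counted for CLIC5, for ST7 and among the 448 values below. The number of markers higher was 1 (CLIC5) and became 0 with DESeq2, with upper-quartile factors, with library size only, without a filter, with the filter of 1 CPM in 3 libraries, with gene counts summed from transcripts and with a replicate block, and ranged from 0 to 1 when each library was left out. The number lower was 4 throughout, except 3 with the filter of 1 CPM, which removes HOPX. AGER has no value when gene counts are summed from transcripts. The number of marker transcripts changed was 5, with 3 under the replicate block and 4 to 5 when libraries were left out. The replicate numbers were not taken to pair the libraries, since deviations of same-numbered libraries correlated only at 0.124, 0.0236 and 0.0215. PC9 replicate 2 correlated best with PS PC9 replicate 3 (0.0971), but the remaining differently numbered pairs lay between -0.117 and -0.00784. A weak pairing is therefore not excluded, and the replicate block was run as an alternative. Scaling by library size only moved the median log2 fold change of all genes to -0.059. Among the 28 other genes followed through the alternatives, 8 of 448 values lost their call, all for ST7, and 0 reversed. The number of genes of the CLIC and ezrin list that were lower was 4 and became 2 with gene counts summed from transcripts. Counts near the floor limit AQP5, SFTPD, NAPSA and PDPN to the values per library.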
